A study of Homo sapiens with 15 samples.

Results

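The non-CSC fraction of HCC1937 was compared with the non-CSC fraction of SUM149 across genes, in 6 of the 15 libraries of the series. The members were chosen by label, 3 libraries of each line, and the genes by level: 12272 of the 33158 genes in the table had a mean of at least 1 FPKM (fragments scaled by transcript length and by the number of mapped fragments) over these 6 libraries and were tested. The study asked how stem-like cells differ from other cells in triple negative breast cancer lines. Cells of HCC1937 and SUM149 had been sorted on CD44 and CD24. The CD44+CD24-/low cells were taken as cancer stem cells (CSC), and the remainder formed the non-CSC fraction described here. The series also holds 3 CSC libraries of each of these lines and 3 libraries of SUM159, a line taken as CSC without sorting. The sorted CSC libraries were used only where the line difference was compared between fractions.

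HCC1937 is a line from a ductal breast carcinoma and SUM149 a line from an inflammatory breast cancer. Both are labelled triple negative, neither received a treatment according to the labels, and mRNA was taken with oligo(dT) beads. The lines were cultured in different media, HCC1937 in RPMI with serum and SUM149 in F12 with less serum, insulin and hydrocortisone, so line and medium cannot be told apart. Each line stands for itself and not for a group of tumours. Nothing in the labels says that the libraries of a line came from separate cultures, so p-values measure only the spread between these libraries, which may be technical. In bulk RNA, fewer cells of a kind and less RNA per cell cannot be told apart.

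The labels were checked against markers. The epithelial gene EPCAM was listed at 93.1, 83.3 and 74.5 FPKM in the HCC1937 libraries and 60.3, 53.8 and 52.1 in the SUM149 libraries, and the E-cadherin gene CDH1 at 83.1, 79.3 and 85.9 in HCC1937 against 80.3, 80.9 and 73.7 in SUM149. KRT8 and KRT18, keratins of simple epithelia, were above 100 FPKM in all 6 libraries. KRT19, another simple keratin, was high only in SUM149, as described below. PGR was listed at 0 in all 6 libraries and ESR1 lay at 1.86, 1.55 and 1.59 in HCC1937 and 0.948, 1.19 and 0.774 in SUM149, both low as the triple negative label requires. ERBB2, whose clinical status is set by protein or gene copies and not by mRNA, was at 16.4, 18.3 and 17.8 in HCC1937 and 6.16, 7.02 and 6.397 in SUM149. It was higher in HCC1937 (log2 difference 1.41, SE 0.08, adjusted p = 4.1e-06).

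The sort gene CD24 matched the fraction label in both lines. It was at 167, 141 and 142 FPKM in the HCC1937 non-CSC libraries and 147, 137 and 134 in those of SUM149, against means of 23.3 and 7.74 in the CSC libraries of the same lines. The non-CSC groups overlapped, and the line difference was not distinguishable from 0 (log2 difference 0.10, 95% interval -0.10 to 0.31, adjusted p = 0.30). Its sign was negative with each of the 3 other scalings. CD44 was at 95.98, 95.1 and 102 in HCC1937 and 66.96, 65.3 and 61.4 in SUM149. The groups did not overlap, but the difference of 0.60 stayed under the limit of 1. The CSC means of CD44 were 106 and 84.4, and its difference between fractions within a line was not tested.

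Marker lists of other cell types were low or mixed. Of 13 leukocyte genes, 2 were tested and neither was called. The summed level of that list was 72.2, 74.3 and 69.0 FPKM in HCC1937 and 101.8, 96.6 and 103.3 in SUM149, most of it from CD68 and CD14. CD68 was the most abundant of them in HCC1937 (39.99 ± 1.29, SD, n = 3) and CD14 in SUM149 (51.3 ± 2.35). Of 11 endothelial genes only ENG was tested (13.9 ± 0.476 FPKM in HCC1937 and 9.25 ± 0.641 in SUM149), and it was not called. The summed level of that list was 16.0, 16.8 and 17.0 in HCC1937 and 10.3, 11.6 and 11.7 in SUM149. Defining genes such as CD3D, CD3E and MS4A1 for leukocytes and TEK and EMCN for endothelium were listed at 0 or near 0. The fibroblast list is described with the mesenchymal genes.

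Cell lines of the triple negative class differ in whether they keep luminal or basal keratins, in how fast they divide and in which inflammatory and metabolic programmes run. Keratins form the intermediate filaments of epithelial cells, and their pairs mark simple, basal or stratified epithelium. Proliferating cells carry more mRNA of the replication and mitosis genes, NF-kappaB drives many cytokine genes, and SREBP factors drive the enzymes of cholesterol and fatty acid synthesis.

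A gene was called when its Benjamini-Hochberg adjusted p from limma was at most 0.05 and its log2 difference, HCC1937 minus SUM149 on log2(FPKM + 0.1), was at least 1 in size. Of the 12272 genes, 4905 (40.0%) were called, 2735 (22.3%) higher and 2170 (17.7%) lower in HCC1937. Of those called, 4885 had groups that did not overlap. The share without overlap among all tested genes was not counted. Without the limit on size, 10143 of the 12272 genes had an adjusted p of at most 0.05. A small adjusted p or groups apart therefore do not by themselves set a gene apart here. The median difference over all genes was 0.15, and the median size among called genes was 1.64. The balance of directions depended on scaling. Among called genes 55.8% were higher in HCC1937 as deposited, 43.5% after upper quartile scaling, which moved the median by -0.23, 47.3% after rescaling each library to the same sum (-0.16) and 51.4% after quantile normalization (-0.10). Differences are therefore read against these shifts, and the fold of a gene near 0 is understated by the added 0.1.

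**Figure D1:**
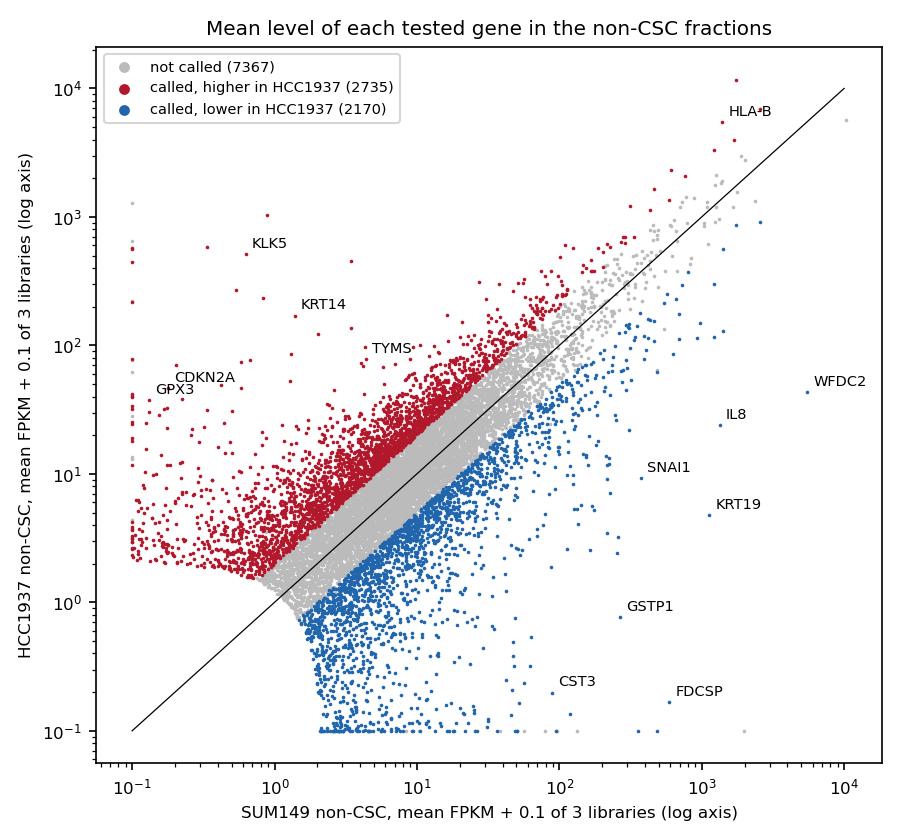
Mean FPKM plus 0.1 of the 3 SUM149 non-CSC libraries (horizontal, log axis) against that of the 3 HCC1937 non-CSC libraries (vertical, log axis) for the 12272 tested genes, coloured by call. Called genes lie on both sides of the line of equal level, 2735 above it and 2170 below it, and the labelled genes include WFDC2, FDCSP and KRT19 far below it and KLK5 and KRT14 far above it.

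The libraries of a line were alike. Correlations of log2 values over all tested genes, which are not independent replicates, were 0.970 to 0.971 among HCC1937 libraries, 0.966 to 0.969 among SUM149 libraries and 0.657 to 0.676 between lines. The sum of FPKM was 354299, 366532 and 330310 in HCC1937 and 320982, 300358 and 315192 in SUM149. The groups did not overlap (exact two-sided permutation p = 0.10, the smallest that 3 against 3 allows). The difference of means, 38203, was 24407 without the 10 most abundant genes of each library. HCC1937 had fewer genes above 1 FPKM, 11746, 11768 and 11775 against 11995, 11997 and 11947, again without overlap (exact permutation p = 0.10). The 10 most abundant genes held 13.92%, 13.94% and 13.03% of the sum in HCC1937 and 11.5%, 10.3% and 10.8% in SUM149 (exact permutation p = 0.10). The most abundant gene of each HCC1937 library was EPS8L1, an adaptor of growth factor signalling, listed at 12513, 12712 and 9945, and that of each SUM149 library was the mitochondrial ribosomal RNA gene RNR2. The read depth of the libraries is unknown, since the table holds no counts.

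Among the genes with the largest differences, several were near 0 in the other line. KLK5, a secreted serine protease of the kallikrein family, was at 575, 494 and 460.2 FPKM in HCC1937 and 0.279, 0.923 and 0.376 in SUM149 (log2 difference 9.800, SE 0.35, adjusted p = 6.3e-07). MAL, a membrane trafficking protein, was at 68.6, 70.9 and 71.5 against 0, 0.178 and 0.129, and GPX3, a secreted glutathione peroxidase, at 38.4, 37.6 and 36.8 against 0, 0.0208 and 0.0729. In each of these genes all HCC1937 libraries lay far above all SUM149 libraries, but groups without overlap were a condition of this choice of genes.

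In the other direction, FDCSP, a small secreted peptide gene, was at 0.201, 0 and 0 FPKM in HCC1937 and 683, 501 and 589 in SUM149. CST3, which encodes the protease inhibitor cystatin C, was at 0.101, 0.0884 and 0.107 in HCC1937 against 94.5, 90.8 and 81.6 in SUM149 (log2 difference -8.81, SE 0.08, adjusted p = 1.2e-08). GSTP1, the pi class glutathione transferase, was at 0.718, 1.005 and 0.275 in HCC1937 against 267, 258 and 275 in SUM149 (log2 difference -8.58, SE 0.37, adjusted p = 1.3e-06). No library of either line reached into the range of the other, which was again a condition of the choice.

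SPINK6, a protease inhibitor directed at kallikreins, was at 0, 0.0556 and 0.0524 FPKM in HCC1937 and 124, 103 and 131 in SUM149, so the kallikreins and this inhibitor lay in opposite directions. PLA2G2A, a secreted phospholipase, averaged 0.0336 ± 0.00374 FPKM in HCC1937 and 45.7 ± 4.16 in SUM149 (SD, n = 3). The matrix protease gene ADAMTS1 (0.0657 ± 0.0262 FPKM in HCC1937 and 52.1 ± 1.41 in SUM149), the chemokine scavenging receptor gene ACKR3 (0.0183 ± 0.00207 FPKM in HCC1937 and 31.5 ± 1.11 in SUM149) and the thrombomodulin gene THBD (0.00763 ± 0.0132 FPKM in HCC1937 and 31.1 ± 0.389 in SUM149) had the same direction.

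WFDC2, which encodes the secreted protein HE4, was among the most abundant mRNAs of SUM149. It was listed at 5839, 4817 and 5819.7 FPKM there and at 46.8, 38.3 and 43.8 in HCC1937 (log2 difference -6.99, SE 0.11, adjusted p = 3.6e-08). SAT1, the polyamine acetylating enzyme, was at 1458, 1365 and 1399.9 in SUM149 and 147, 131 and 112 in HCC1937 (log2 difference -3.44). Neither gene overlapped between the lines.

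**Figure D2:**
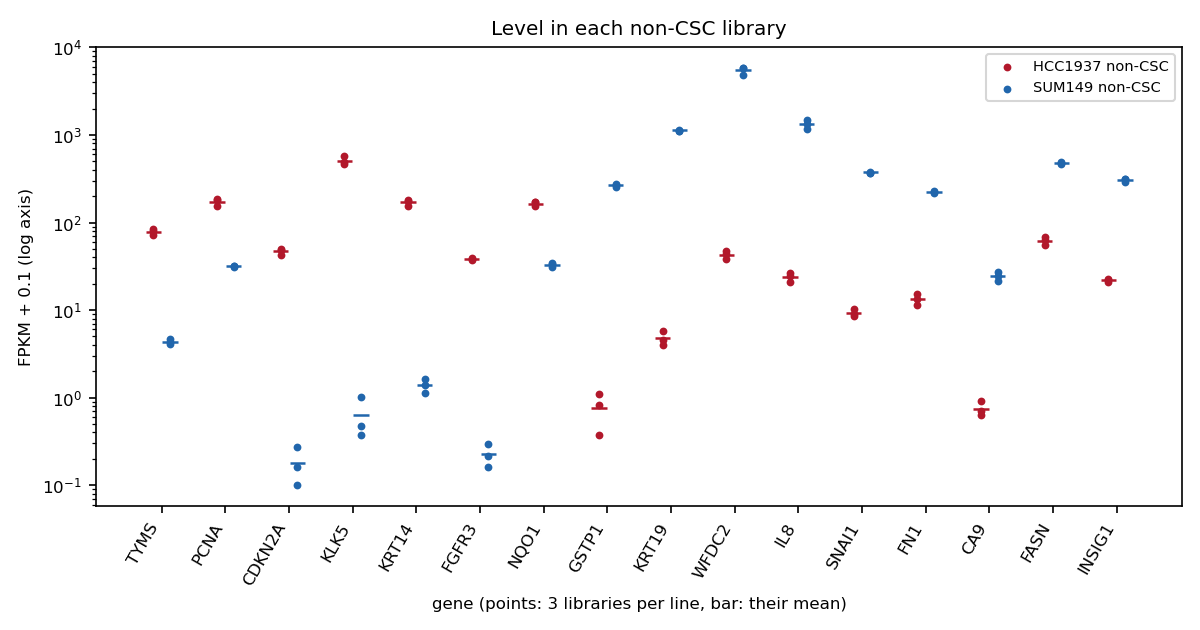
FPKM plus 0.1 (log axis) of 16 genes in each of the 6 non-CSC libraries, with 3 points and a bar for their mean in each line. In all 16 genes the points of the lines stand apart, for example TYMS at 80.02, 83.4 and 72.3 FPKM in HCC1937 and 4.53, 4.04 and 4.24 in SUM149.

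The replication and mitosis list lay almost wholly on the HCC1937 side. Of its 36 members, all tested, 35 were called higher in HCC1937 and none lower, against 22.3% of all genes higher, and their median difference was 2.32 against 0.15 for all genes. TYMS, the enzyme that makes thymidylate for DNA, was at 80.02, 83.4 and 72.3 FPKM in HCC1937 and 4.53, 4.04 and 4.24 in SUM149 (log2 difference 4.17, SE 0.08, adjusted p = 6.8e-08). PCNA, the sliding clamp of the replication fork, was at 178, 186 and 155 in HCC1937 against 32.03, 32.1 and 30.9 in SUM149 (log2 difference 2.44, SE 0.08, adjusted p = 5.2e-07). MKI67, the gene of the proliferation antigen Ki-67, was at 24.8, 25.4 and 30.7 in HCC1937 against 3.28, 3.05 and 3.37 in SUM149. The groups did not overlap in any of these genes. The member that was not called was the mitotic kinase gene AURKB, with a difference of 0.99 (95% interval 0.78 to 1.201), just under the limit. With the other scalings 34 of the 36 members were called higher. Growth rate was not measured, and the share of cells in cycle and the mRNA per cycling cell cannot be told apart.

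Promoters of this list are shown because its members moved together. RefSeq promoters (build GRCh38.p14) were found for 29 of the 36 members. The 250 bases before the start held CCAAT, the letters bound by NF-Y, on either strand in 24 of the 29 (82.8%), against 32.0% of 35116 promoters in the table. TTTGAA, the letters of the cell cycle element CHR, were present in 10 of the 29 (34.5%), against 13.3% of all promoters. A match is a description of letters and not a shown site. The list was chosen for replication and mitosis, and members were counted whatever their call. These shares therefore do not bear on the line difference. The promoters below belong to the 3 called members with the highest HCC1937 mean that had 1 entry in the table and held a match, CDC20 (chr1:43358731-43358980, plus strand), TOP2A (chr17:40417897-40418146, minus strand) and CCNB1 (chr5:69166900-69167149, plus strand). Capitals mark both motifs on either strand, and no matches overlapped here.
CDC20: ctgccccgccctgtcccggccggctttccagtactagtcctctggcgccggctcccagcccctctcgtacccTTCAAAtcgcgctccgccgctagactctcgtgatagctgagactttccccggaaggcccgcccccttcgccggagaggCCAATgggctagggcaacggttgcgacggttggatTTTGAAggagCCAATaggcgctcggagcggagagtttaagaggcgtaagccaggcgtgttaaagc
TOP2A: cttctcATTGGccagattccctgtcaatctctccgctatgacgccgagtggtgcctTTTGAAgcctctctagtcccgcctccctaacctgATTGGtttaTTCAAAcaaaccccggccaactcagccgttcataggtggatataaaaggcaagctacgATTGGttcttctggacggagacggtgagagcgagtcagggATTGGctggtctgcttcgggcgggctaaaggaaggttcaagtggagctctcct
CCNB1: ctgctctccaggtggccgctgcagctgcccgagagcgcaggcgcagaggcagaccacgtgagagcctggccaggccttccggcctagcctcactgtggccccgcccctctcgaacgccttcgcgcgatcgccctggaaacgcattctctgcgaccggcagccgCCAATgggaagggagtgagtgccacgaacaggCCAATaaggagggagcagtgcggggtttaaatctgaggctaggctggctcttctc

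All 3 genes with these promoters act in mitosis. CDC20, an activator of the anaphase promoting complex, was at 74.2, 74.2 and 65.1 FPKM in HCC1937 and 18.1, 16.7 and 20.3 in SUM149 (log2 difference 1.95, SE 0.10, adjusted p = 2.6e-06). TOP2A, the topoisomerase that untangles sister chromatids, was at 56.1, 60.7 and 61.6 in HCC1937 against 9.73, 8.17 and 9.65 in SUM149 (log2 difference 2.69). CCNB1, the mitotic cyclin B1, was at 56.1, 61.002 and 53.4 in HCC1937 against 11.5, 10.5 and 11.9 in SUM149 (log2 difference 2.32). In all 3 the lowest HCC1937 library exceeded the highest SUM149 library.

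Genes that control entry into the cycle moved in both directions (median 0.88). Among 24 tested members, 11 were called higher and 3 lower, against 22.3% and 17.7% of all genes. The CDK4 and CDK6 inhibitor genes on chromosome 9 were present in HCC1937 and near 0 in SUM149. CDKN2A, which encodes p16 and p14ARF, was at 47.9, 50.001 and 42.2 FPKM against 0.0626, 0.172 and 0 (log2 difference 8.15, SE 0.33, adjusted p = 1.1e-06). Its neighbour CDKN2B was at 25.5, 24.98 and 24.2 against 0.00892, 0.0639 and 0. The next neighbour MTAP, a methionine salvage enzyme outside the CDK pathway, was at 15.4, 15.7 and 15.1 against 0.0204, 0.0557 and 0. The groups were fully apart in these 3 genes.

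The inhibitor gene CDKN1A, which encodes p21, had the opposite direction, at 48.7, 46.3 and 47.1 FPKM in HCC1937 and 215, 205 and 203 in SUM149 (log2 difference -2.13, SE 0.06, adjusted p = 2.7e-07). CDKN2D was also lower in HCC1937 (-1.096). The transcription factor gene E2F1 (32.4 ± 1.54 FPKM in HCC1937 and 2.41 ± 0.135 in SUM149) and the cyclin E2 gene CCNE2 (13.4 ± 0.623 FPKM in HCC1937 and 1.06 ± 0.36 in SUM149) were higher in HCC1937. RB1, whose product restrains E2F factors, differed by 0.48 (95% interval 0.18 to 0.78) and was not called. CCND1, cyclin D1, was called at 1.13 as deposited but lay under 1, down to 0.90, with the other scalings.

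Keratins separated the lines without a common direction. Among 22 tested luminal epithelial genes, 4 were called higher (18.2%) and 5 lower (22.7%) in HCC1937 (median 0.32), near the 22.3% and 17.7% of all genes. KRT19 was at 4.47, 5.73 and 3.92 FPKM in HCC1937 and 1151, 1107 and 1123 in SUM149 (log2 difference -7.89, SE 0.13, adjusted p = 4.6e-08). KRT8 was at 592, 589 and 523 in HCC1937 against 191, 187 and 179.7 in SUM149 (log2 difference 1.61), and its partner KRT18 at 636, 669.8 and 529 in HCC1937 against 204, 208 and 233 in SUM149 (log2 difference 1.502). KRT19 was thus low in HCC1937 while the KRT8 and KRT18 pair was higher there, and the groups overlapped in none of the 3.

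Among 29 tested basal and myoepithelial genes, 13 were called higher and 8 lower (median 0.65), against 22.3% and 17.7% of all genes. KRT14, a keratin of basal cells, was at 175, 180.1 and 155 FPKM in HCC1937 and 1.52, 1.03 and 1.29 in SUM149 (log2 difference 6.96, SE 0.14, adjusted p = 7.9e-08). Its usual partner KRT5 lay the other way, at 33.4, 31.97 and 31.8 in HCC1937 against 137, 145 and 142 in SUM149 (log2 difference -2.12, SE 0.06). KRT16, a keratin of activated stratified epithelium, was at 327, 309.6 and 272 in HCC1937 against 38.2, 35.3 and 39.7 in SUM149 (log2 difference 2.999). KRT14 and KRT16 were therefore higher in HCC1937 and KRT5 lower. KRT17 was lower in HCC1937 (214 ± 15.7 FPKM in HCC1937 and 540.1 ± 29.002 in SUM149, log2 difference -1.34), as was KRT6B (6.92 ± 0.789 FPKM in HCC1937 and 85.2 ± 5.89 in SUM149), whose mRNA is close in sequence to KRT6A and KRT6C, so the split among these copies is uncertain.

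Of 23 tested cell junction genes, 7 were called higher and 1 lower, against 22.3% and 17.7% of all genes. After upper quartile scaling 4 were called higher and 2 lower. The median of 0.13 was at that of all genes. It changed sign with upper quartile scaling (-0.10) and with rescaling to the same sum (-0.03). The CDH1 difference was not distinguishable from 0 (0.08, 95% interval -0.08 to 0.24, adjusted p = 0.31). The alpha-catenin gene CTNNA1 was at 103, 102 and 96.5 FPKM in HCC1937 and 34.6, 35.2 and 35.7 in SUM149 (log2 difference 1.51, SE 0.06, adjusted p = 9.5e-07), without overlap. The tight junction gene CLDN1 was higher in HCC1937 (2.600) and the desmosome gene PKP1 was the member called lower, at 6.53, 7.34 and 7.85 in HCC1937 against 29.6, 31.6 and 30.9 in SUM149 (log2 difference -2.07). The plakoglobin gene JUP was called at 1.102 as deposited and at 0.87 was no longer called after upper quartile scaling.

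Squamous genes were split by family. Among 26 tested cornified and squamous genes, 11 were called higher and 6 lower (median 0.88), against 22.3% and 17.7% of all genes. The kallikreins, proteases that shed the outer layer of stratified epithelium, were on the higher side. Beside KLK5, KLK6 was at 296, 255 and 254 FPKM in HCC1937 and 0.354, 0.413 and 0.538 in SUM149 (log2 difference 8.98, SE 0.14, adjusted p = 3.1e-08), and KLK10 at 241, 242 and 212 in HCC1937 against 0.721, 0.799 and 0.656 in SUM149 (log2 difference 8.13). All their SUM149 values were under 1 FPKM. The serpins of squamous cells were on the lower side. SERPINB3 was at 7.77, 7.102 and 6.102 in HCC1937 and 253, 222 and 211 in SUM149 (log2 difference -5.01, SE 0.11), although its copy SERPINB4 is nearly identical and reads could be shared. SERPINB2 was at 3.78, 3.18 and 3.22 in HCC1937 against 224, 217 and 203 in SUM149 (log2 difference -5.94). The calprotectin subunit gene S100A8 was also lower in HCC1937 (156 ± 16.3 FPKM in HCC1937 and 461 ± 70.97 in SUM149, log2 difference -1.56).

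Mesenchymal genes were more often lower in HCC1937, with 9 of 18 tested members called lower and 2 higher, against 17.7% of all genes lower (median -1.03). SNAI1, a transcriptional repressor of epithelial genes, was at 10.3, 8.41 and 8.89 FPKM in HCC1937 and 379, 371 and 368 in SUM149 (log2 difference -5.33, SE 0.09, adjusted p = 3.8e-08). The fibronectin gene FN1 was at 11.3, 13.3 and 14.98 in HCC1937 against 226, 222 and 219.9 in SUM149 (log2 difference -4.07, SE 0.11). Neither gene overlapped between the lines. The receptor kinase gene AXL was higher in HCC1937, at 28.6, 32.5 and 31.9 against 7.86, 7.35 and 9.55 (log2 difference 1.903), as was the N-cadherin gene CDH2 (8.08 ± 1.09 FPKM in HCC1937 and 3.31 ± 0.123 in SUM149, log2 difference 1.25). The vimentin gene VIM differed by -0.66 (95% interval -1.08 to -0.23) and was not called.

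The fibroblast list, 12 genes with 6 tested, had 5 members called lower and 1 higher (median -3.98), against 17.7% and 22.3% of all genes. Its summed level was 39.4, 42.0 and 39.7 FPKM in HCC1937, most of it FBLN1, and 128.1, 130.4 and 133.9 in SUM149, led by COL1A1. COL1A1, a chain of type I collagen, was at 5.83, 6.88 and 7.57 in HCC1937 and 45.95, 49.5 and 51.7 in SUM149. MMP2, a gelatinase, was at 1.02, 1.18 and 1.203 in HCC1937 against 41.4, 43.5 and 42.3 in SUM149, and the proteoglycan gene DCN was listed at 0 in all HCC1937 libraries and at 17.8, 15.9 and 15.02 in SUM149. FBLN1, a matrix glycoprotein, went the other way (31.01 ± 1.26 FPKM in HCC1937 and 5.73 ± 0.465 in SUM149). DCN, POSTN and PDGFRA were at 0 in every HCC1937 library. The libraries are from cell lines, and a part of other cells in these values was not tested.

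Inflammatory genes were mostly higher in SUM149. Of 36 tested cytokine, chemokine and NF-kappaB genes, 24 were called lower in HCC1937 and 2 higher, against 17.7% and 22.3% of all genes. Their median was -1.43, against 0.15 for all genes, and with the other scalings 26 members were called lower. IL8, the neutrophil chemokine now named CXCL8, was at 20.6, 26.1 and 24.4 FPKM in HCC1937 and 1485, 1184 and 1333 in SUM149 (log2 difference -5.81, SE 0.12, adjusted p = 8.7e-08). CXCL1, a chemokine for the same receptor, was at 80.1, 94.8 and 83.9 in HCC1937 against 666, 627 and 603 in SUM149 (log2 difference -2.87, SE 0.08, adjusted p = 3.2e-07). CCL20, which attracts cells that carry CCR6, was at 6.59, 5.14 and 5.097 in HCC1937 against 161, 117 and 144 in SUM149. The lines did not overlap in these chemokines. TNFAIP2, a gene induced by TNF, was at 227, 231 and 225 in HCC1937 against 655, 662 and 659 in SUM149 (log2 difference -1.53). The cytokine gene IL6 was low in both lines, at 4.18, 4.36 and 3.25 in HCC1937 and 9.997, 11.3 and 8.78 in SUM149 (log2 difference -1.33, SE 0.14, adjusted p = 9.6e-05).

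The members called higher in HCC1937 were CX3CL1, the membrane bound chemokine fractalkine, at 14.5, 14.1 and 13.9 FPKM against 0.826, 0.415 and 0.65, and the mucosal chemokine gene CCL28 at 8.02, 7.01 and 7.19 against 0.253, 0.212 and 0.154. Both were under 1 FPKM in every SUM149 library.

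The promoters of the chemokine genes IL8 and CXCL1 are shown because these members lay in the same direction. GGAATTTCC, one form of the letters bound by NF-kappaB, was in the 250 bases before the start in 9 of the 27 tested list members with a promoter in the table (33.3%), against 0.413% of all 35116 promoters, counted on both strands. The list was chosen to hold cytokine and NF-kappaB genes, and members were counted whatever their call. This share therefore does not bear on the line difference, and a part of NF-kappaB in it was not tested. The promoters shown belong to the 2 called members with the highest SUM149 mean that had 1 entry in the table and held a match. IL8 lies at chr4:73740319-73740568 and CXCL1 at chr4:73869143-73869392, both GRCh38.p14 on the plus strand, and capitals mark the match.
IL8: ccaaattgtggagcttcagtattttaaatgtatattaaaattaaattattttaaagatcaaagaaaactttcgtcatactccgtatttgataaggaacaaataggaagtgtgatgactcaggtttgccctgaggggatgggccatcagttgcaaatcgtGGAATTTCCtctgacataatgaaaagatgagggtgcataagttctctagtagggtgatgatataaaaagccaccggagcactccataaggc
CXCL1: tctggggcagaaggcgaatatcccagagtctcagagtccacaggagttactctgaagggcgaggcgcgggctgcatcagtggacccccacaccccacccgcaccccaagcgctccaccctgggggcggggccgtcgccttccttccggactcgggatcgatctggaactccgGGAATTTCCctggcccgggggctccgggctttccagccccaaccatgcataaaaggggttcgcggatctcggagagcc

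The first base of the match lay 91 bases before the start in IL8 and 78 bases before it in CXCL1.

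Interferon stimulated genes leaned to HCC1937 (median 0.85). Among 33 tested members, 15 (45.5%) were called higher and 4 (12.1%) lower, against 22.3% and 17.7% of all genes. IFI35 was at 31.98, 29.2 and 26.1 FPKM in HCC1937 and 4.01, 3.75 and 4.105 in SUM149 (log2 difference 2.84, SE 0.09, adjusted p = 4.1e-07). OAS3, a sensor that makes the activator of RNase L, was at 8.83, 8.84 and 9.52 in HCC1937 against 2.02, 2.15 and 2.29 in SUM149 (log2 difference 2.02), and OASL, a related gene, at 42.7, 41.5 and 37.2 in HCC1937 against 13.5, 13.9 and 13.5 in SUM149 (log2 difference 1.56). The groups were apart in each. IFITM1, a membrane protein that limits virus entry, lay the other way, at 44.3, 44.01 and 44.5 in HCC1937 against 204, 183 and 228 in SUM149 (log2 difference -2.204), as did IFI6 (71.8 ± 11.3 FPKM in HCC1937 and 168 ± 16.01 in SUM149, log2 difference -1.23). IFITM1 has close copies in IFITM2 and IFITM3, so its split of reads is uncertain.

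Antigen presentation genes were mostly higher in HCC1937 (median 1.68), but 11 of the 17 tested members lie in the MHC region. Among the 17, 13 were called higher and 2 lower, against 22.3% and 17.7% of all genes. HLA-B, a class I heavy chain, was at 5402, 5929 and 5179 FPKM in HCC1937 and 1434, 1352 and 1389.6 in SUM149 (log2 difference 1.98, SE 0.07, adjusted p = 7.0e-07), and HLA-C at 6763, 7397 and 6463 in HCC1937 against 2681, 2539 and 2471 in SUM149 (log2 difference 1.42, and 0.65 and not called after quantile normalization). The class I genes are near copies of each other and highly variable, so these levels are uncertain. Outside the MHC region, 5 of 6 tested members were called higher and none lower (median 1.81).

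Values in the MHC region (chromosome 6, from 28 to 34 megabases) often took an on or off form. Of 70 tested genes there, 46 (65.7%) were called, 23 in each direction, and 16 (22.9%) had a mean under 0.1 FPKM in one line and at least 5 in the other, against 1.17% of all genes. TUBB, a beta tubulin gene that dividing cells use, was listed at 1032, 1072 and 989.6 in HCC1937 and 0.0767, 2.13 and 0.134 in SUM149. TAP1, a subunit of the peptide transporter, was listed at 0, 0 and 0 in HCC1937 and 38.1, 37.8 and 33.7 in SUM149. Its partner TAP2 had 92.6, 93.5 and 106 in HCC1937 against 8.37, 8.36 and 10.999 in SUM149. The values listed for the subunits of this transporter thus went in opposite directions. PSMB9, an immunoproteasome subunit, was listed at 0 in all SUM149 libraries and at 42.5, 55.7 and 20.6 in HCC1937, and HLA-F at 566, 631 and 542 in HCC1937 and 0.26, 0.119 and 0.327 in SUM149.

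PPT2 and ZFP57 of the same region were also listed at 0 in all SUM149 libraries, and in HCC1937 PPT2 was at 88.4, 55.96 and 90.2 and ZFP57 at 56.4, 29.3 and 35.8. The pseudogenes HLA-H and HLA-K were listed at 0 in all HCC1937 libraries, and in SUM149 HLA-H was at 76.4, 37.5 and 38.2 and HLA-K at 20.3, 31.4 and 26.95. The receptor gene DDR1 had 1.81, 4.76 and 2.897 in HCC1937 against 263, 256 and 256 in SUM149. The build carries several alternate sequences of this region, and how reads from them were counted is not given in the sources used here. These levels are given as listed, with no fold where a line is at 0, and their part in the count of calls is small: 4859 genes were called without the region. LENG1 on chromosome 19, in a region that also has alternate sequences, was listed at 0 in HCC1937 and at 39.1, 24.2 and 83.8 in SUM149.

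Small RNA genes gave a further uncertain group, since many lie inside longer genes and are poorly captured by oligo(dT). Of 55 tested, 15 were called, a smaller share than the 40.0% of all genes, and 11 of them were higher. SNORA63 was listed at 345, 1200.2 and 174 FPKM in HCC1937 and at 0 in SUM149. SNORA61 was at 1116, 0 and 559 in HCC1937 and at 0 in SUM149, so the groups overlapped. Its adjusted p of 0.048 lay at the limit, and the call was lost in 11 of the alternatives, including those without each of 5 libraries (HCC1937 replicates 1 and 3 and each SUM149 replicate).

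Genes of the glucocorticoid response were mostly lower (median -1.37) in HCC1937, whose medium held no added hydrocortisone. Among 21 tested members, 12 were called lower and 1 higher, against 17.7% and 22.3% of all genes. The part of the medium was not tested. MT1X, a metallothionein, was at 109.5, 132 and 105 FPKM in HCC1937 and 1109, 1028 and 1548 in SUM149 (log2 difference -3.39, SE 0.17, adjusted p = 2.6e-06). DUSP1, a MAP kinase phosphatase, was at 84.8, 86.3 and 73.9 in HCC1937 against 242, 227 and 249 in SUM149 (log2 difference -1.55). KLF9 (6.37 ± 0.272 FPKM in HCC1937 and 31.3 ± 0.334 in SUM149) and the clock gene PER1 (4.93 ± 0.189 FPKM in HCC1937 and 24.5 ± 0.761 in SUM149) had the same direction. None of these genes overlapped between lines. MT1X belongs to a family of near copies. TFCP2L1 was the member called higher (2.85 ± 0.39 FPKM in HCC1937 and 0.941 ± 0.0556 in SUM149), and it was not called with a pseudocount of 1.

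Receptor kinases and their ligands were more often higher in HCC1937 (median 0.98). Among 23 tested members, 11 were called higher and 2 lower, against 22.3% and 17.7% of all genes. With each of the other scalings 8 were called higher. FGFR3, a fibroblast growth factor receptor, was at 36.9, 39.3 and 38.1 FPKM in HCC1937 and 0.196, 0.0609 and 0.118 in SUM149 (log2 difference 7.45, SE 0.21, adjusted p = 2.5e-07). Its ligand gene FGF2 was at 32.7, 34.2 and 36.8 in HCC1937 against 2.49, 2.24 and 2.19 in SUM149 (log2 difference 3.85), and FGFBP1, which carries such ligands, at 90.4, 89.6 and 77.6 in HCC1937 against 31.2, 29.8 and 29.3 in SUM149 (log2 difference 1.51). Receptor, ligand and carrier were all higher in HCC1937, without overlap. VEGFA, the angiogenic factor, was lower (70.1 ± 3.51 FPKM in HCC1937 and 151 ± 1.66 in SUM149, log2 difference -1.102). VEGFC was called at 1.05 as deposited but at 0.81 was no longer called after upper quartile scaling, and at 0.98 without HCC1937 replicate 2.

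The PI3K list had no lean as a whole (median -0.09). Among 30 tested members, 5 were called higher and 7 lower, against 22.3% and 17.7% of all genes. After upper quartile scaling these counts were 3 and 11. Single members stood out. The insulin-like growth factor receptor gene IGF1R was at 0.322, 0.347 and 0.327 FPKM in HCC1937 against 7.38, 7.82 and 8.09 in SUM149 (log2 difference -4.19, SE 0.06, adjusted p = 3.3e-08), and PIK3IP1, an inhibitor of PI3K, at 4.81, 4.61 and 4.01 in HCC1937 against 31.3, 27.8 and 32.9 in SUM149 (log2 difference -2.75). Both were lower in HCC1937 without overlap. The adaptor gene IRS2 was also lower (-1.504). TSC2, an inhibitor of mTORC1, was higher in HCC1937 (17.5 ± 1.12 FPKM in HCC1937 and 7.36 ± 0.448 in SUM149, log2 difference 1.24). AKT2 was called at 1.13 as deposited but lay under 1 with the other scalings, down to 0.89.

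Cholesterol and fatty acid synthesis genes were mostly lower in HCC1937 (median -1.204). Among 32 tested members, 17 (53.1%) were called lower and 3 (9.4%) higher, against 17.7% and 22.3% of all genes. SCD, the desaturase that makes oleate, was at 113, 105 and 119 FPKM in HCC1937 and 712, 697 and 669 in SUM149 (log2 difference -2.62, SE 0.07, adjusted p = 2.2e-07). FASN, fatty acid synthase, was at 54.97, 63.1 and 67.5 in HCC1937 against 469.9, 492 and 483 in SUM149 (log2 difference -2.96, SE 0.09, adjusted p = 3.2e-07). The lowest SUM149 library exceeded the highest HCC1937 library several fold in these genes. INSIG1, which holds SREBP factors in the endoplasmic reticulum and is itself their target, was at 21.9, 22.6 and 20.98 in HCC1937 against 317, 313 and 294 in SUM149 (log2 difference -3.81), and the sterol oxidase gene MSMO1 at 64.03, 63.6 and 62.6 in HCC1937 against 291, 255 and 269 in SUM149 (log2 difference -2.095). Members called higher included the fatty acid elongase gene ELOVL6 (19.8 ± 0.473 FPKM in HCC1937 and 5.68 ± 0.259 in SUM149) and the sterol reductase gene TM7SF2 (24.3 ± 1.62 FPKM in HCC1937 and 9.11 ± 0.473 in SUM149). The media also differed in serum, whose part was not tested.

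FA2H, the enzyme that adds a hydroxyl group to fatty acids and that the study centred on, is not in that list. It was at 20.7, 23.4 and 22.8 FPKM in HCC1937 and 1.09, 1.41 and 1.56 in SUM149 (log2 difference 3.96, SE 0.13, 95% interval 3.65 to 4.27, adjusted p = 4.8e-07). The groups did not overlap. STAT3, the transcription factor downstream of IL6, was at 62.02, 60.3 and 63.01 in HCC1937 against 21.1, 20.2 and 20.9 in SUM149 (log2 difference 1.57, SE 0.06, adjusted p = 6.9e-07). STAT3 was higher in HCC1937 while IL6 was lower there.

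Glycolysis and hypoxia genes leaned to SUM149 (median -1.01). Among 32 tested members, 17 were called lower in HCC1937 and 3 higher, against 17.7% and 22.3% of all genes. After upper quartile scaling or rescaling, 1 was called higher. The hypoxia marker CA9, a carbonic anhydrase, was at 0.804, 0.6 and 0.533 FPKM in HCC1937 and 24.4, 21.4 and 26.97 in SUM149 (log2 difference -5.04, SE 0.15, adjusted p = 3.3e-07). The glucose transporter gene SLC2A3 was at 0.211, 0.244 and 0.367 in HCC1937 against 19.5, 19.5 and 19.8 in SUM149 (log2 difference -5.74), and the stress gene NDRG1 at 96.02, 95.9 and 91.99 in HCC1937 against 315, 311 and 314 in SUM149 (log2 difference -1.73). These genes did not overlap between lines. Among the enzyme genes, ALDOA was higher in HCC1937 (642 ± 54.2 FPKM in HCC1937 and 270.4 ± 10.6 in SUM149, log2 difference 1.24, or 1.01 after upper quartile scaling and 0.99, no longer called, with a length trend removed), and GAPDH differed by 0.75 and was not called. Lactate transporters were split, with SLC16A3 lower (-1.57) and SLC16A1 at 1.16, which fell under 1 after upper quartile scaling (0.92). Oxygen and culture density were not recorded in the labels.

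NRF2 and xenobiotic genes had 4 of 27 tested members called higher and 9 lower (median -0.11), against 22.3% and 17.7% of all genes. Beside GSTP1, the heme oxygenase gene HMOX1 was at 15.5, 14.6 and 12.3 FPKM in HCC1937 and 141, 144 and 153 in SUM149 (log2 difference -3.36, SE 0.10, adjusted p = 3.1e-07). NQO1, a quinone reductase, had the opposite direction, at 169, 170.3 and 153 in HCC1937 against 33.7, 34.6 and 30.8 in SUM149 (log2 difference 2.31, SE 0.08). Both genes were apart between lines. CYP1B1, a target of the aryl hydrocarbon receptor, was lower in HCC1937 (5.25 ± 0.927 FPKM in HCC1937 and 127 ± 9.43 in SUM149), and TXN, thioredoxin, was higher (119 ± 14.2 FPKM in HCC1937 and 49.2 ± 8.005 in SUM149). Of 32 cancer testis genes, 30 were in the table and only CT83 was tested, listed at 10.5, 12.03 and 12.5 in HCC1937 and at 0 in all SUM149 libraries.

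**Figure D3:**
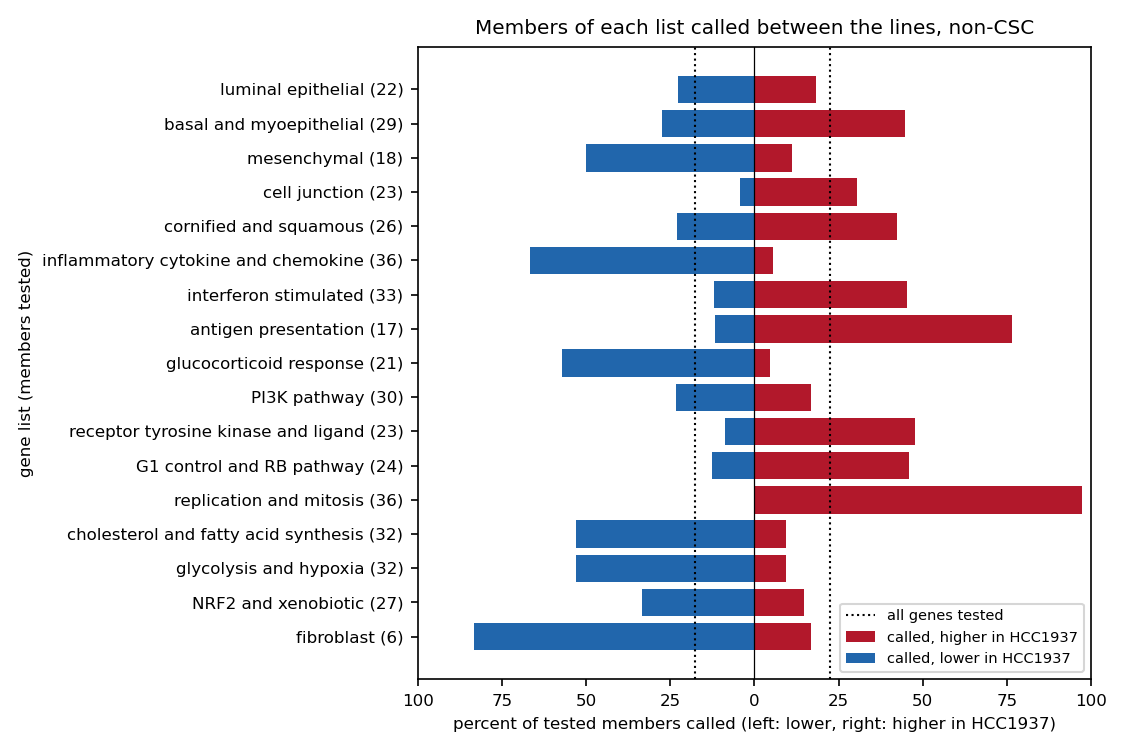
Percent of the tested members of each list (number in brackets) that were called higher in HCC1937 (right) or lower (left), for the lists with at least 6 tested members, with dotted lines at 22.3% and 17.7%, the shares of all tested genes. The replication and mitosis list reaches 97.2% on the right, and on the left the fibroblast list, with 6 genes, reaches 83.3% and the inflammatory list 66.7%.

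Whether a line difference in the non-CSC fraction differed from that in the CSC fraction was tested in the 12 sorted libraries, as the difference HCC1937 minus SUM149 in non-CSC minus the same in CSC. Of the 12272 genes, 3379 (27.5%) were called, 1247 (10.2%) with a positive and 2132 (17.4%) with a negative value. The balance again depended on scaling, since 36.9% of the called genes were positive as deposited, 50.6% after quantile normalization and 30.9% after rescaling to the same sum. Of the 4905 genes called between the lines in the non-CSC fraction, 1840 were among them. In the CSC fraction, 2943 of the 4905 passed the same limits in the same direction and 160 in the opposite direction.

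The cholesterol and fatty acid synthesis list differed by fraction mostly in the negative direction. Of its 32 tested members, 21 had a negative and 1 a positive called value, against 17.4% and 10.2% of all genes, and its median line difference was -1.204 in the non-CSC and 0.66 in the CSC fraction. FASN was at 63.3, 66.2 and 64.4 FPKM in the HCC1937 CSC libraries and 38.8, 34.6 and 36.5 in those of SUM149, so the line order was reversed there (value of the test -3.78, SE 0.11, adjusted p = 1.5e-09). INSIG1 was at 47.6, 40.7 and 43.4 in HCC1937 against 43.6, 41.96 and 43.6 in SUM149 (-3.84, adjusted p = 7.6e-10). Set beside the non-CSC values given above, the SUM149 non-CSC libraries stood above the other 3 groups in these genes. SCD (-2.89) and MSMO1 (-2.79) had the same sign.

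The inflammatory list had 21 of 36 negative and 7 positive, against 17.4% and 10.2% of all genes. Its medians were -1.43 in the non-CSC and -0.30 in the CSC fraction. CXCL1 was at 360.1, 271 and 257 FPKM in the HCC1937 CSC libraries and 24.8, 21.04 and 27.6 in those of SUM149 (-6.46, SE 0.19, adjusted p = 1.9e-09). CXCL6, a further neutrophil chemokine, was at 19.1, 20.04 and 17.4 in HCC1937 against 0.776, 0.406 and 0.861 in SUM149 among CSC libraries, and at 2.68, 3.95 and 3.47 in HCC1937 against 26.7, 18.8 and 23.8 in SUM149 among non-CSC libraries (-7.401, adjusted p = 2.0e-08). CSF3, the granulocyte growth factor, was at 31.5, 26.1 and 23.8 in HCC1937 against 0.767, 0.649 and 1.21 in SUM149 among CSC libraries, and at 5.82, 8.08 and 6.06 in HCC1937 against 14.9, 16.1 and 14.3 in SUM149 among non-CSC libraries (-6.02, adjusted p = 2.7e-08). These 3 genes were lower in HCC1937 in the non-CSC and higher in the CSC fraction. IL8 was lower in HCC1937 in both, with -5.81 in non-CSC and -4.801 in CSC.

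The luminal and cell junction lists leaned the same way. The counts of each list below stand against 17.4% negative and 10.2% positive among all genes. Of 22 luminal genes 10 were negative and none positive, and of 23 cell junction genes 10 were negative and 2 positive, with CSC medians of 1.22 and 1.38 against 0.32 and 0.13 in non-CSC. The basal and myoepithelial list had 11 positive and 11 negative of 29. The cornified and squamous list had 12 positive and 11 negative of 26, but 6 positive and 11 negative after rescaling to the same sum. CDH1 differed by 2.31 in CSC and 0.08 in non-CSC (-2.23, adjusted p = 4.1e-08), EPCAM by 2.803 and 0.59 (-2.21, adjusted p = 2.1e-06). The sort gene CD24 showed the same pattern, 1.58 and 0.10 (-1.48, adjusted p = 4.1e-07). The replication and mitosis list differed little by fraction, with 2 positive and 3 negative of 36 and medians of 2.32 in non-CSC and 1.92 in CSC.

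**Figure D4:**
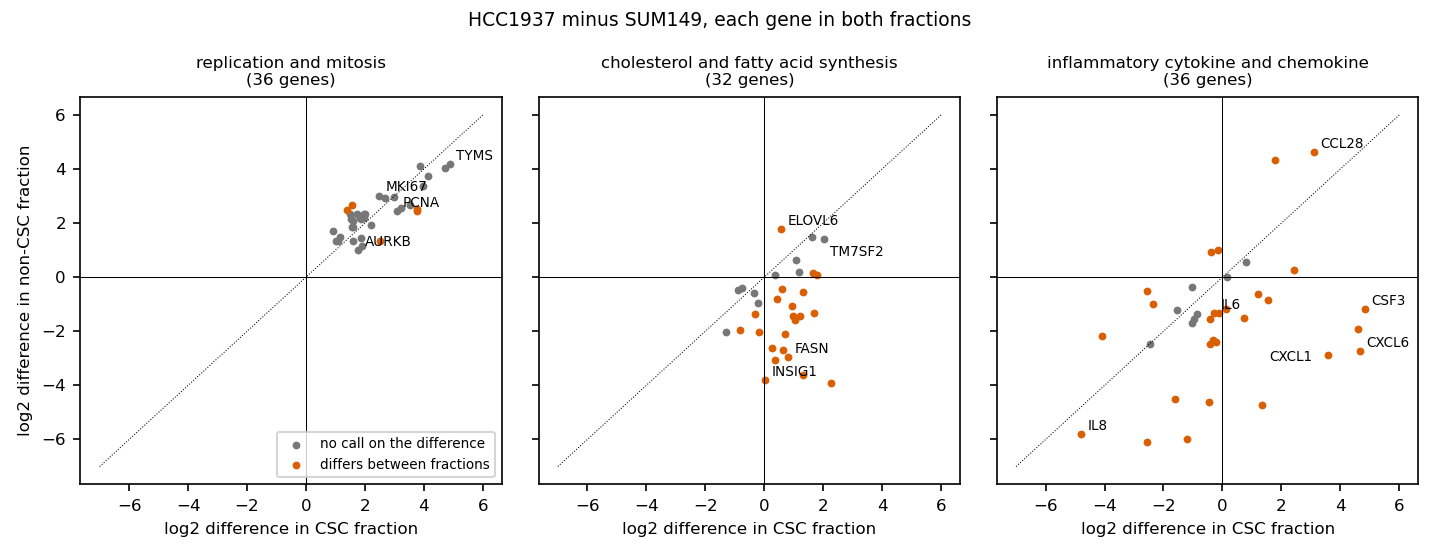
Log2 difference HCC1937 minus SUM149 of each tested member of 3 lists in the CSC fraction (horizontal) and the non-CSC fraction (vertical), with a dotted line of equal difference and orange points where the difference between fractions was called. Replication and mitosis genes lie along the line, whereas 21 of 32 cholesterol and fatty acid genes and 21 of 36 inflammatory genes were called below it. Of all tested genes 17.4% were called below it.

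Positions from the RefSeq table of the same build showed that calls were uneven along the genome. On chromosome 18, 76 of 166 tested genes (45.8%) were called lower in HCC1937 and 13 higher, with a median difference of -0.82. On chromosome 5, 194 of 534 (36.3%) were called higher and 63 lower (median 0.60), and on chromosome 21, 40 of 116 (34.5%) were called lower and 11 higher (median -0.49). Chromosome medians in the CSC fraction were -0.50, 0.22 and -0.23 for these 3. Copy number was not measured.

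**Figure D5:**
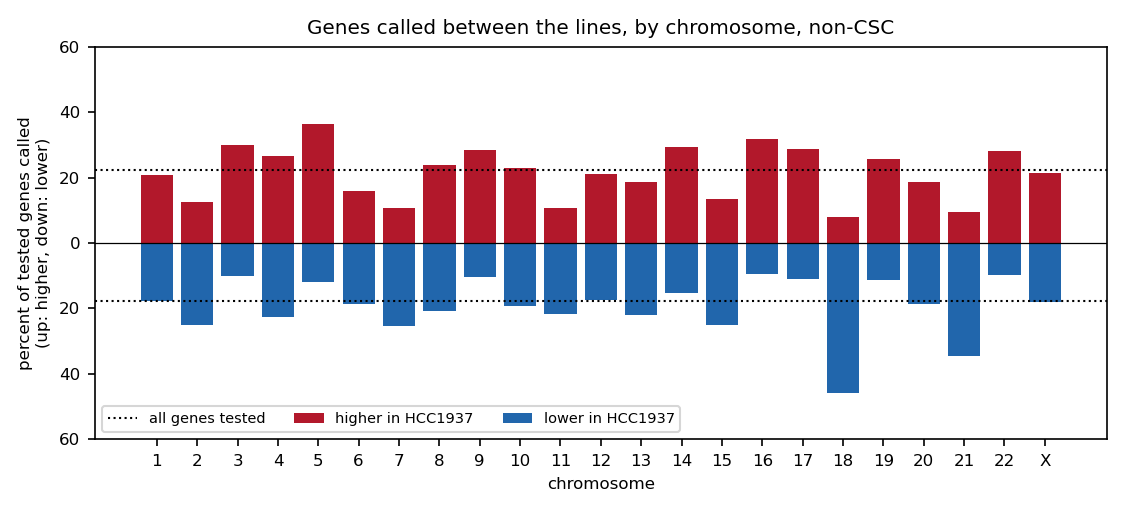
Percent of the tested genes of each chromosome that were called higher (up) or lower (down) in HCC1937, with dotted lines at 22.3% and 17.7%, the shares of all tested genes. Chromosome 18 has the longest downward bar at 45.8%, and chromosome 5 the longest upward bar at 36.3%.

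Runs of at least 5 neighbouring tested genes that were all called in the same direction with a difference of at least 2 numbered 7, of which 3 runs with 20 genes were higher and 4 runs with 30 genes lower in HCC1937. Of all genes, 828 (6.75%) passed these limits as higher and 906 (7.38%) as lower. A run of 8 genes on chromosome 9 (chr9:21454268-26947242), which held CDKN2A, CDKN2B and MTAP, was higher in HCC1937 with a median difference of 5.12. Its median was 5.30 in the CSC fraction. Other runs were made of gene families. The kallikrein genes on chromosome 19 gave 7 neighbours higher in HCC1937 (median 7.87), the keratin genes on chromosome 12, KRT5 and KRT6B among them, 7 lower (median -3.61), and the serpin genes on chromosome 18, SERPINB2 and SERPINB3 among them, lay in a run of 9 lower genes (median -3.52). A run of 6 lower genes on chromosome 18 (median -2.41) and a run of 5 higher genes on chromosome 1, which held the nestin gene NES (median 2.18), were also found.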

How the data were processed

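RNA of sorted cells was sequenced by the authors, who aligned reads to GRCh38 with Bowtie2 (version not given in the sources used here) and deposited a table of FPKM values, 33158 genes in 15 libraries. How fragments were assigned to genes, alternate sequences and close copies is not given in those sources. FPKM holds no counts, so depth and counting error are unknown, and a value of 0 means only that a gene was listed at 0.

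From these values log2(FPKM + 0.1) was computed for the 12272 genes that averaged 1 FPKM or more in the 6 libraries. Lines were compared with limma 3.58.1 in R 4.3.3 (lmFit and eBayes, no covariates), with Benjamini-Hochberg adjustment over all tested genes and calls where the adjusted p was 0.05 or less and the log2 difference was 1 or more in size. The test between fractions was the limma interaction over 12 sorted libraries. The code was tested on simulated data. Library summaries were compared by exact permutation with scipy 1.17.1. Of the 33158 genes, 27739 matched RefSeq (GRCh38.p14) by symbol or by an unambiguous synonym, and 25475 matched GENCODE release 29 for GC content and length.

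The members and the 20 gene lists were chosen with earlier results of these data known. Named genes were, in each direction, the 12 with the largest difference among called genes that did not overlap and reached a mean of 10 FPKM in a line, the 5 most abundant with a difference of at least 3, the 2 most abundant called members of each list, and CD24, CD44, ESR1, PGR, ERBB2, FA2H, IL6 and STAT3. Some results are not reported here, and 92 genes by this rule are. A further 41 were chosen after their values were seen: MKI67, TOP2A, CDC20, CCNB1, AURKB, E2F1, CCNE2, CDKN2B, MTAP, RB1, KRT14, KRT6B, CDH1, EPCAM, CLDN1, CXCL1, CXCL6, CSF3, IL24, CCL20, INSIG1, MSMO1, CA9, SLC2A3, IGF1R, FGFR3, FGF2, KLF9, PER1, CYP1B1, TAP2, SERPINB2, NES, GAPDH, CD14, CD68, DCN, ENG, OAS3, EPS8L1 and VIM. Alternatives changed the pseudocount, the expression minimum, the scaling, eBayes settings, the libraries in the fit, the replicate block, the limits and each library in turn. Removal of GC or length trends, a replicate block within each line and leaving out the MHC region or small RNA genes were added after seeing the data.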

Additional observations from a re-analysis of the deposited data

Results flagged for a closer look

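A line difference that differed between the non-CSC and CSC fractions singled out 71 of the 132 named genes that were tested, by the limma interaction at the limits given above. The value below is the line difference (HCC1937 minus SUM149) in non-CSC minus that in CSC, on the log2 scale, and was positive in 25 genes and negative in 46. In 19 of the 71 the line difference had opposite signs in the fractions, and in 56 the value had the sign of the non-CSC difference. Of all tested genes 27.5% passed this test, and the named genes were chosen partly for their size of difference, so nothing is read from the share.

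Among lipid genes, it was -3.78 for FASN, -2.89 for SCD, -3.84 for INSIG1, -2.79 for MSMO1 and 1.203 for ELOVL6. Among cytokine and chemokine genes, it was -6.46 for CXCL1, -7.40 for CXCL6, -6.02 for CSF3 and -6.06 for IL24. In the same group, it was -4.18 for CCL20, -1.01 for IL8, -1.06 for IL6, 1.52 for CCL28 and 2.54 for CX3CL1. Among keratins, it was -3.30 for KRT5, -2.37 for KRT6B, -1.98 for KRT16, -1.80 for KRT17 and -2.46 for KRT19. Among epithelial and junction genes, it was -1.48 for CD24, -2.23 for CDH1, -2.21 for EPCAM, -4.25 for PKP1, 2.41 for CLDN1 and 1.06 for CTNNA1.

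Among secreted epithelial products, it was -2.36 for WFDC2, -5.62 for FDCSP, -4.71 for SPINK6, -4.90 for PLA2G2A, -1.27 for CST3 and -2.46 for S100A8. Among proteases and serpins, it was 2.00 for KLK5, 1.32 for KLK6, 1.16 for KLK10, -3.23 for SERPINB2, -2.27 for SERPINB3 and -1.98 for ADAMTS1. Among matrix and mesenchymal genes, it was -2.71 for SNAI1, 1.43 for COL1A1, 3.62 for FBLN1, -3.38 for DCN and -2.19 for NES. Among genes of the PI3K, STAT3 and growth factor pathways, it was 2.18 for PIK3IP1, 1.21 for STAT3, 1.28 for FGF2, -3.88 for FGFBP1 and 1.30 for VEGFA. Among cell cycle genes, it was -1.80 for E2F1, 1.47 for RB1 and 1.13 for TOP2A. Among stress and metabolic genes, it was -3.06 for MT1X, -1.48 for SAT1, -6.48 for CYP1B1 and -1.86 for TFCP2L1.

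For glycolysis and hypoxia, it was 1.01 for ALDOA, -2.11 for SLC16A3 and 1.08 for CA9. Among interferon genes, it was 1.501 for IFI35, 1.62 for OAS3 and -1.33 for OASL. For the myeloid markers, it was -5.22 for CD14 and -1.65 for CD68. In the MHC region, where levels are uncertain, it was -1.17 for HLA-C, 3.17 for HLA-F, -5.19 for HLA-DMA and 2.50 for TAP2. For genes listed at 0 in all 3 non-CSC libraries of a line, it was -8.32 for HLA-H, -5.21 for TAP1, 2.26 for PSMB9, 3.92 for LENG1 and 11.50 for SNORA63. The values of this last group, DCN included, depend on the added 0.1 and are no measure of fold. The MHC values rest on levels whose counting is not given, and their part in the result was not tested. The replicates number 3 in each group, so single libraries were not tested for standing apart.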

How the results depend on the processing

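The count of 4905 called genes was 2866 (1725 higher, 1141 lower) with a minimum of 5 FPKM, where fewer genes are tested, and 1734 (828 higher, 906 lower) with a log2 limit of 2, which is stricter by construction. Genes called lower numbered 3402 with a minimum of 0.1 FPKM and 3556 with no minimum, where more genes are tested. All other counts stayed within 1.5 times, for example 3986 with a pseudocount of 1 and 4325 at an adjusted p of at most 0.0001. Leaving out each library in turn gave 4845 to 4940 calls between the lines (2684 to 2770 higher, 2136 to 2181 lower) and 3339 to 3427 between fractions (1206 to 1326 positive, 2093 to 2175 negative). In every fit the variance of a gene was pooled over the groups, also where 2 libraries of a group were left.

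Replicate numbers are shared between lines, but same-numbered libraries did not deviate together (correlations 0.048, -0.051 and -0.066 over genes), so the numbers do not pair the lines. Between the fractions of a line, same-numbered libraries had correlations of -0.156, -0.0552 and -0.076 in HCC1937 and 0.156, 0.0287 and 0.149 in SUM149, and whether they came from the same sort is not stated in the labels. With the replicate number as a block, 4904 genes (2735 higher, 2169 lower) were called between the lines and 3380 (1248 positive, 2132 negative) between fractions. With a replicate block within each line, added after seeing the data, 3380 genes (1249 positive, 2131 negative) were called between fractions, 3362 of them as without it.

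Removal of a GC or length trend, added after seeing the data, gave 4476 and 4426 calls among 11743 genes. Of these calls 47.0% and 46.9% were higher, and 4158 and 4084 were also called without the removal. Leaving out small RNA genes, also added after seeing the data, left 4890 calls. CD24, not called in any of these, changed sign with upper quartile scaling (-0.13), quantile normalization (-0.00632), rescaling to the same sum (-0.0636) and GC (-0.0875) or length (-0.13) removal. CDH1, also not called, changed sign with upper quartile scaling (-0.16), quantile normalization (-0.0497), rescaling (-0.0856) and GC removal (-0.13). The cause was not tested. Of the list counts, 838 values stayed within 1.5 times and 42 did not. Cell junction went from 7 to 4 higher with upper quartile scaling or GC or length removal, and from 1 to 2 lower with upper quartile scaling, rescaling or GC removal. PI3K went from 5 to 3 higher with a pseudocount of 1, upper quartile scaling, rescaling or GC removal and to 2 with a minimum of 5 FPKM, and from 7 lower to 11 with upper quartile scaling and 3 with that minimum. Glycolysis and hypoxia went from 3 to 1 higher with upper quartile scaling, rescaling or length removal. With the minimum of 5 FPKM, cornified and squamous went from 11 to 7 higher and interferon stimulated from 15 to 8, and with a minimum of 0.1 FPKM or none interferon stimulated went from 4 to 7 lower. Antigen presentation went from 13 to 5 higher without the MHC region. Fibroblast went from 5 lower to 9 with a minimum of 0.1 FPKM or none and to 3 with one of 5. The other such counts began at 2 or fewer genes, such as cancer testis genes lower (0, then 6 or 8 with a minimum of 0.1 FPKM or none). Between fractions, the other scalings gave 21 or 22 negative cholesterol and fatty acid genes, 21 inflammatory, 8 to 13 luminal and 7 to 12 cell junction genes. Of the values of single genes, 37 in 9 genes lost the call and 3 in 2 genes gained it. Calls were lost by AKT2, CCND1, JUP, SLC16A1, SNORA61 and VEGFC as described with these genes, by ALDOA with length removal (0.99), by HLA-C with quantile normalization (0.65) and by TFCP2L1 with a pseudocount of 1 (0.98).

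Depth is unknown, so the error of low values is seen only in the spread between 3 libraries. The sum of FPKM was higher in HCC1937 by 38203, and by 24407 without the 10 most abundant genes of each library.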
